A study of Mus musculus with 6 samples.

Results

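Aldh1a7 and 9 other genes of retinoic acid synthesis and response were followed in the proximal incisor of mice with a conditional deletion of Arid1a, which encodes a subunit of the BAF (SWI/SNF) chromatin remodelling complex. The members were taken by gene symbol: Aldh1a1, Aldh1a2, Aldh1a3 and Aldh1a7 (aldehyde dehydrogenases of family 1A), Rdh10 and Dhrs3 (retinol and retinal oxidoreductases), Crabp1 and Crabp2 (cellular retinoic acid binding proteins), Cyp26b1 (degradation) and Rarb (receptor). All 10 are among the 25703 genes of the deposited count table, and all 10 passed the filter on low counts that left 19613 genes for testing. The set was selected on the counts of Aldh1a7 in these same libraries, where its level was about 4-fold higher in Arid1a cKO. Its difference between genotypes, and every ratio, share or sum that contains it, is therefore given as a description without a test.

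Retinol, the circulating form of vitamin A, is oxidized reversibly to retinal, and retinal is oxidized irreversibly to retinoic acid by enzymes of the ALDH1A family. Retinoic acid enters the nucleus, binds retinoic acid receptors paired with retinoid X receptors, and is removed by cytochrome P450 enzymes of the CYP26 family. In tooth development, retinoic acid is known to affect the initiation, patterning and mineralization of teeth. Mouse incisors keep growing in adult animals, from epithelial and mesenchymal stem cells at their proximal end.

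The Arid1a cKO group carried Gli1-CreER and a floxed Arid1a (Arid1a fl/fl), so that the deletion was limited to cells that expressed Gli1 when tamoxifen was given and to their descendants. The control group was Arid1a fl/fl without CreER, so that effects of CreER and of the deletion cannot be told apart. Both groups were C57BL/6 mice aged 6 weeks, and tamoxifen is stated for the samples of both, given into the peritoneum at 1 month of age on 3 days, with 1.5 mg for each 10 g of body weight. Each group has 3 libraries of total RNA, made from the proximal region of the incisor and read from a single end with 75 cycles. Whether animals were pooled is not given, and the labels do not say that the libraries come from separate animals, so p-values measure the spread between these samples.

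Library totals ran from 29922013 to 37908478 estimated counts in Arid1a cKO and from 27300932 to 32677240 in control. Arid1a itself (chr4:133679008-133756769 of mm10, minus strand) was measured at 136, 139 and 145 CPM (counts scaled to a common library size, with TMM factors) in Arid1a cKO replicates 1, 2 and 3, against 222, 249 and 223 CPM in control replicates 1, 2 and 3. Its log2 fold change, Arid1a cKO over control here and throughout, was −0.72 (SE 0.0677, adjusted p = 0.00802, edgeR's quasi-likelihood test with Benjamini-Hochberg adjustment over 19613 genes), and the groups did not overlap. Counts per gene also take reads outside the floxed part. Gli1, the gene after which the CreER is named, fell as well, by 0.52 on the log2 scale (adjusted p = 0.0162, edgeR). Only the Arid1a cKO group carried Gli1-CreER, so an effect of that allele on Gli1 and an effect of the deletion cannot be told apart. In whole tissue, fewer cells of a type and less RNA per cell cannot be told apart. All 12 dental epithelium markers and all 10 dental mesenchyme markers looked for had counts, so the tissue held both layers. The summed CPM of each list, in which abundant genes weigh most, overlapped between the groups. By single genes, edgeR called 1 epithelium marker higher and 0 lower, and it called 0 mesenchyme markers. Of all genes tested, it called 1.5% higher and 2.46% lower. The groups did not overlap for 1 epithelium marker with Arid1a cKO higher and 0 with Arid1a cKO lower. For mesenchyme markers these numbers were 1 and 4, against 13.8% and 15.3% of all genes tested. Epithelium markers summed to 1552 to 3257 CPM in Arid1a cKO and to 1327 to 4782 CPM in control, with the highest sum of each group in Arid1a cKO replicate 1 and control replicate 3. In the same libraries, and in no other, Xist counts were above the summed counts of Y-linked genes. The 8 Schwann cell markers summed to 155 to 234 CPM in Arid1a cKO and to 74.4 to 151 CPM in control without overlap, although none of the 8 passed the test by itself. Singly, the groups did not overlap for 3 of the 8, each with Arid1a cKO higher, against 13.8% of all genes tested. The sums of all other cell type lists examined overlapped between the groups.

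Aldh1a7 was the least abundant member in control incisors and its level there varied little. It encodes a cytosolic aldehyde dehydrogenase that arose by duplication of Aldh1a1 in rodents, and its activity on retinal is known to be low compared with that of ALDH1A1. The gene lies on chr19:20692953-20727562 of mm10, on the minus strand, 49487 bp from the end of Aldh1a1 (chr19:20492715-20643465, plus strand), so that the paralogs point toward each other. Aldh1a7 was measured at 8.31, 10.2 and 5.51 CPM in Arid1a cKO replicates 1, 2 and 3, against 1.94, 1.74 and 2.19 CPM in control replicates 1, 2 and 3. All Arid1a cKO libraries lay above all control libraries, with the lowest Arid1a cKO library at replicate 3. The means were 8.01 ± 2.36 CPM in Arid1a cKO and 1.96 ± 0.226 CPM in control (SD, n = 3 each), and the fitted difference was 4.09-fold (log2 2.03). These levels rest on 326.179, 377.281 and 166.889 estimated counts in Arid1a cKO and on 61.2288, 48.4025 and 59.645 in control. Of the 19613 genes tested, 77 (0.393%) had a log2 fold change at or above that of Aldh1a7, while the median over all of them was 0.0043.

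**Figure D1:**
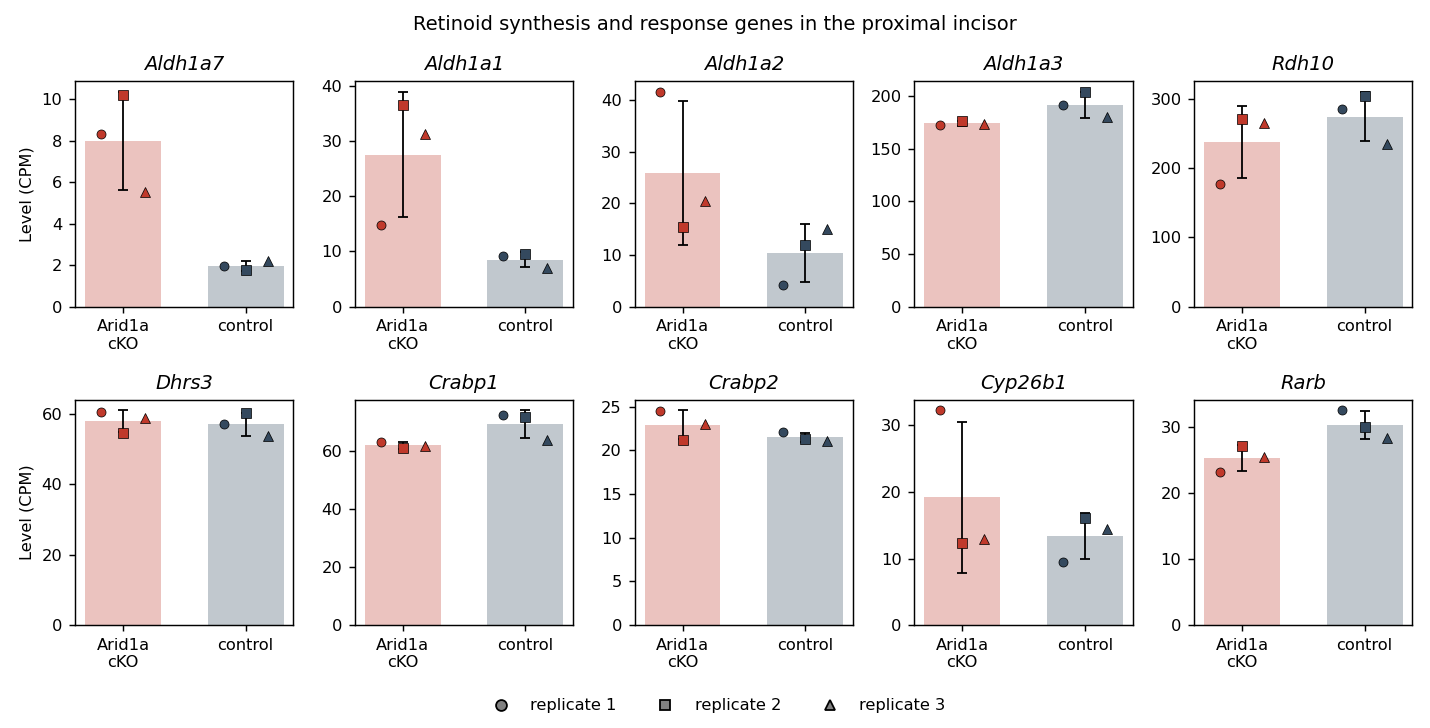
Level of each of the 10 members in CPM on a linear axis from 0, with a panel per gene and Arid1a cKO left of control. Bars are group means, error bars the SD (n = 3 each) and points the libraries, and Aldh1a7 lies at 5.51 to 10.2 CPM in Arid1a cKO and 1.74 to 2.19 CPM in control.

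Aldh1a1, the paralog, encodes a retinal dehydrogenase and was measured at 14.8, 36.7 and 31.4 CPM in Arid1a cKO replicates 1, 2 and 3, against 9.15, 9.53 and 6.94 CPM in control replicates 1, 2 and 3. The groups did not overlap, but Arid1a cKO replicate 1 stood well below the other Arid1a cKO libraries. Means were 27.6 ± 11.4 CPM in Arid1a cKO and 8.54 ± 1.40 CPM in control (SD, n = 3 each). The fitted difference was 3.23-fold (log2 1.69, SE 0.350), with an adjusted p = 0.0568 in edgeR's quasi-likelihood test, which misses the threshold of 0.05. Of 19 other settings, 6 gave an adjusted p under 0.05. These were DESeq2 (2.83e-07), a filter of at least 1 CPM in all libraries (0.0442), the epithelium score as a covariate (0.0258), a term for Xist-high libraries (0.00931), the 4 libraries with Y-linked counts above Xist (0.0165), and the fit without Arid1a cKO replicate 1 (0.00484). Leaving out any other library gave adjusted p-values up to 0.155, and limma-voom gave 0.123. The lncRNA C730002L08Rik overlaps Aldh1a1 on the opposite strand, at no more than 0.271 CPM in any library.

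Aldh1a7 shared the direction of its paralog, and the ratio of the paralogs differed among libraries of the same genotype by more than the group means did. Their summed level was 23.1, 46.9 and 36.9 CPM in Arid1a cKO replicates 1, 2 and 3, against 11.1, 11.3 and 9.13 CPM in control replicates 1, 2 and 3. Fitted as a single gene, the sum was 3.39-fold higher in Arid1a cKO (log2 1.76). Of that sum of counts, Aldh1a7 held 36.0%, 21.8% and 14.9% in Arid1a cKO and 17.6%, 15.6% and 23.9% in control. The shares overlapped between the groups, with means of 24.2% ± 10.7 in Arid1a cKO and 19.0% ± 4.32 in control (SD, n = 3 each). Per kb of exon, the Aldh1a7 to Aldh1a1 ratio was 1.34, 0.665 and 0.420 in Arid1a cKO and 0.508, 0.436 and 0.755 in control. On this scale Aldh1a7 exceeded Aldh1a1 in Arid1a cKO replicate 1 only, while by counts Aldh1a7 was the lower paralog in every library. Exon lengths were merged over all annotated transcripts of a gene, at 4937 bases for Aldh1a1 and 2066 for Aldh1a7. Which transcripts gave the reads is not known, so levels per kb compared between genes depend on these lengths. The log2 fold change of Aldh1a7 minus that of Aldh1a1 was 0.34, and 0.013 without Arid1a cKO replicate 1.

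**Figure D2:**
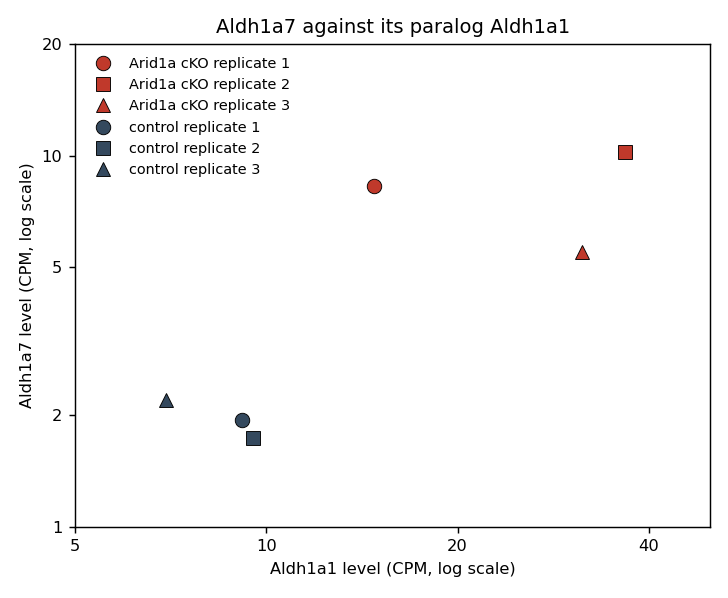
Aldh1a7 level against Aldh1a1 level in CPM on log axes, with a point per library, Arid1a cKO in red and control in dark blue. The 3 Arid1a cKO libraries lie up and right of the 3 control libraries, and within Arid1a cKO replicate 1 has the lowest Aldh1a1 level (14.8 CPM) beside an intermediate Aldh1a7 level (8.31 CPM).

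Part of the reads cannot be assigned to a single paralog. The estimated counts of Aldh1a7 and Aldh1a1 are not whole numbers in any library, yet their sum lies within 0.02 of a whole number in each, as it would be where reads are split between these genes. Of the 1992 windows of 75 bases in Aldh1a7 transcripts, 50 (2.51%) are also in Aldh1a1 transcripts. These windows are 1.01% of the 4934 in Aldh1a1. How many reads the authors' estimation moved between the paralogs was not tested.

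The start regions of the paralogs are shown because they share long stretches of sequence. They were taken from RefSeq (GRCm38.p6) as windows from 250 bases before to 50 bases after a start site. RefSeq lists start windows for 2 Aldh1a1 starts. The Aldh1a7 window is chr19:20727507-20727806 (minus strand), and the downstream Aldh1a1 window is chr19:20601718-20602017 (plus strand). Capitals mark the longest run that is identical in both, 65 bases long, from 94 to 30 bases before the start site.
Aldh1a7: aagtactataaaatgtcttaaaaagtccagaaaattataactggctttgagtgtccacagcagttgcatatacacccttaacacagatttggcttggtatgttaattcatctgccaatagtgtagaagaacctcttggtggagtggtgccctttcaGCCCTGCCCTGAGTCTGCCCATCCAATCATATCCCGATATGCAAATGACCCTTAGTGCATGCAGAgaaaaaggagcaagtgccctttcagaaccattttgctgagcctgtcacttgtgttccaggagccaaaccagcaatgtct
Aldh1a1: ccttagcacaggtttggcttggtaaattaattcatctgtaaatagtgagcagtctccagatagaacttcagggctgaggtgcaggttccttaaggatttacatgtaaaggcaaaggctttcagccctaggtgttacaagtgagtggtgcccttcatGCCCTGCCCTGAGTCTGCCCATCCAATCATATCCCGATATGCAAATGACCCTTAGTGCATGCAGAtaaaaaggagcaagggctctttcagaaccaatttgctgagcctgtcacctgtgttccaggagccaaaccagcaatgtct
Compared without gaps over 150 bases, 100 before and 50 after the start, 142 bases (94.7%) were identical. The upstream Aldh1a1 window, which begins at position 20492333 of the same chromosome, matched Aldh1a7 at 44 of 150 bases (29.3%), with a longest shared run of 8 bases. Which Aldh1a1 start gave the reads cannot be told from counts per gene.

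Aldh1a2 (chr9:71215789-71296243, plus strand), the retinal dehydrogenase that makes most retinoic acid in the early embryo, was measured at 41.6, 15.4 and 20.4 CPM in Arid1a cKO replicates 1, 2 and 3, against 4.24, 11.9 and 15.0 CPM in control replicates 1, 2 and 3. The groups did not overlap, although the lowest Arid1a cKO library was just above the highest control library, and both groups were widely spread. Its log2 fold change was 1.32 (SE 0.578, adjusted p = 0.261, edgeR) and did not pass the test. Arid1a cKO replicate 1 and control replicate 3 were each the highest Aldh1a2 library of their group, and without Arid1a cKO replicate 1 the log2 fold change was 0.79.

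Aldh1a3 (chr7:66390890-66427517, minus strand), also a retinal dehydrogenase and by far the most abundant ALDH1A gene here, was measured at 173, 176 and 173 CPM in Arid1a cKO replicates 1, 2 and 3, against 191, 204 and 179.7 CPM in control replicates 1, 2 and 3. All Arid1a cKO libraries lay below all control libraries. The difference was small, with a log2 fold change of −0.14 (SE 0.0642, adjusted p = 0.255, edgeR), and did not pass the test.

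**Figure D3:**
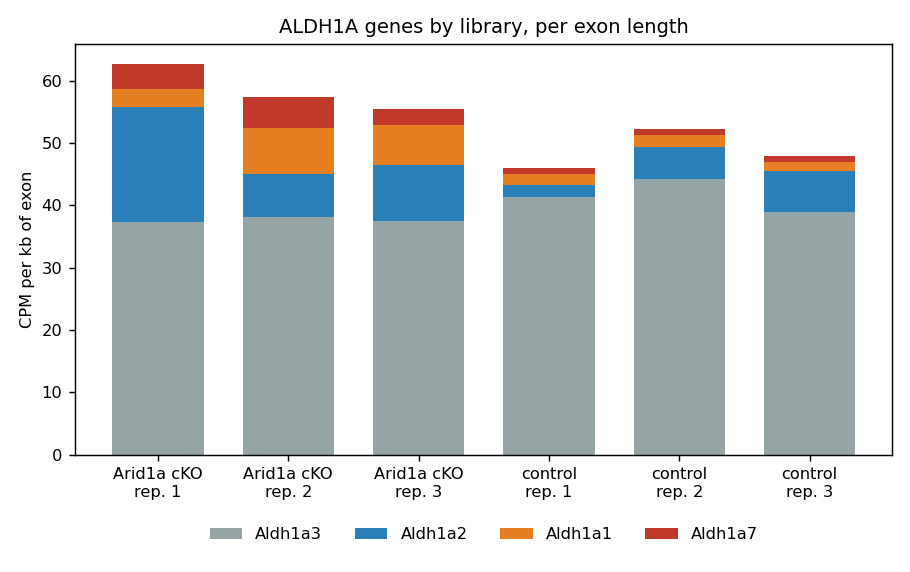
CPM per kb of exon of the 4 ALDH1A genes stacked for each library, with Arid1a cKO libraries left of control libraries. Aldh1a3 holds 59.5% to 67.5% of the total in Arid1a cKO and 81.1% to 89.9% in control.

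Per kb of exon, the 4 ALDH1A genes together reached 62.8, 57.3 and 55.5 CPM in Arid1a cKO replicates 1, 2 and 3, against 46.1, 52.2 and 48.0 CPM in control replicates 1, 2 and 3. Aldh1a3 held 59.5%, 66.6% and 67.5% of it in Arid1a cKO, against 89.9%, 84.7% and 81.1% in control. Aldh1a7 held 6.41%, 8.61% and 4.80% in Arid1a cKO, against 2.04%, 1.61% and 2.21% in control, without overlap. It held the smallest share of the 4 in every library except Arid1a cKO replicate 1. Aldh1a1 held 4.77%, 12.96% and 11.4% in Arid1a cKO and 4.02%, 3.70% and 2.93% in control. For Aldh1a2 the shares were 29.3%, 11.9% and 16.3% in Arid1a cKO and 4.06%, 10.0% and 13.8% in control, and these overlapped. These shares depend on the merged exon lengths used. Transcript per kb says nothing of enzyme activity, which differs between these enzymes.

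The enzymes of the reversible first step did not pass the test. Rdh10 (chr1:16105774-16133734, plus strand) oxidizes retinol to retinal and was measured at 177, 272 and 266 CPM in Arid1a cKO replicates 1, 2 and 3, against 286, 304 and 235 CPM in control replicates 1, 2 and 3. The groups overlapped, with Arid1a cKO replicate 1 and control replicate 3 the lowest of their groups. Its log2 fold change was −0.21 (SE 0.178, adjusted p = 0.544, edgeR). Dhrs3 (chr4:144892827-144928209, plus strand) reduces retinal back to retinol and is known to be induced by retinoic acid in several tissues. It was measured at 60.3, 54.4 and 58.8 CPM in Arid1a cKO and at 57.0, 60.2 and 53.6 CPM in control. The groups overlapped throughout, and the log2 fold change was 0.02 (SE 0.0687, adjusted p = 0.883, edgeR), with a sign that changed when single libraries were left out.

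Among the binding proteins, Crabp1 (chr9:54764748-54773110, plus strand), which binds retinoic acid in the cytosol, was the most abundant member per kb. It was measured at 63.0, 60.8 and 61.6 CPM in Arid1a cKO replicates 1, 2 and 3, against 72.2, 71.5 and 63.7 CPM in control replicates 1, 2 and 3. Arid1a cKO libraries were closely grouped and lay below all control libraries, the nearest being control replicate 3. The log2 fold change of −0.16 (SE 0.0652, adjusted p = 0.202, edgeR) did not pass the test. Crabp2 (chr3:87948666-87953376, plus strand), which delivers retinoic acid to its receptors, was measured at 24.5, 21.2 and 23.1 CPM in Arid1a cKO and at 22.1, 21.3 and 21.0 CPM in control. The groups overlapped, with a log2 fold change of 0.09 (SE 0.0782, adjusted p = 0.530, edgeR).

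Cyp26b1 (chr6:84571414-84593908, minus strand), which oxidizes retinoic acid to inactive products, was measured at 32.3, 12.3 and 12.9 CPM in Arid1a cKO replicates 1, 2 and 3, against 9.46, 16.2 and 14.5 CPM in control replicates 1, 2 and 3. The groups overlapped, and Arid1a cKO replicate 1 alone stood above the others. The log2 fold change was 0.53 (SE 0.439, adjusted p = 0.536, edgeR) and −0.083 without that library.

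Rarb (chr14:16430839-16819156, minus strand) encodes retinoic acid receptor beta, and it is a textbook direct target of retinoic acid through a response element in its promoter. It was measured at 23.3, 27.1 and 25.5 CPM in Arid1a cKO replicates 1, 2 and 3, against 32.6, 30.1 and 28.4 CPM in control replicates 1, 2 and 3. All Arid1a cKO libraries lay below all control libraries. The log2 fold change was −0.26 (SE 0.0849, adjusted p = 0.123, edgeR) and did not pass the test. Rarb overlaps Top2b on the opposite strand, and 32.1% of its windows of 75 bases are also found in transcripts of Top2b or Gm48162. For Top2b itself the log2 fold change was −0.21 with an adjusted p = 0.172 (edgeR), and with the strand setting of the counting not given, reads of the overlap cannot be told apart.

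The Rarb start window is shown because it holds the response element. It is chr14:16575427-16575726 of GRCm38.p6 on the minus strand, from RefSeq, and capitals mark a direct repeat of 2 hexamers separated by 5 bases, which begins 53 bases before the start site.
Rarb: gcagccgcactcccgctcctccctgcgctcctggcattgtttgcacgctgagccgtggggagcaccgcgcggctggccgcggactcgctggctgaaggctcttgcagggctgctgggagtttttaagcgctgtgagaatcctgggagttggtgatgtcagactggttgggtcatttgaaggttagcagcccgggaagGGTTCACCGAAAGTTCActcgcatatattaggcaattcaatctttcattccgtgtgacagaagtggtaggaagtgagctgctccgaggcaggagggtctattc
The hexamers searched were AGGTCA, which is the consensus, with its variants GGGTCA as well as AGTTCA and also, as in this window, GGTTCA. Any of them could be followed by any of them on the same strand after 1, 2 or 5 bases, and both strands of the same windows were read. Of 32851 windows over all genes, 0.222%, 0.268% and 0.0974% held a repeat with these separations. Windows were found for Aldh1a1, Aldh1a2, Aldh1a7, Dhrs3, Crabp1, Cyp26b1 and Rarb, and among them the Rarb window was the only match. Both hexamers of the Rarb repeat were in the list searched, so that match was built into the search. Sequence outside the windows was not searched. No windows were found for Aldh1a3, Rdh10 and Crabp2. A match is a description of letters and not of binding.

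**Figure D4:**
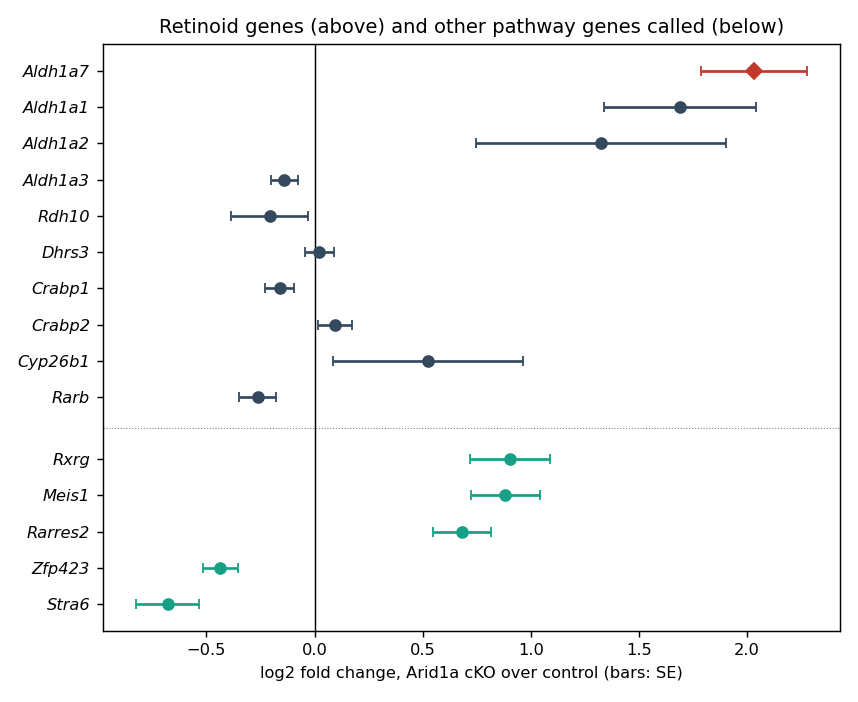
Log2 fold change, Arid1a cKO over control, with bars of 1 SE, for the 10 members (above) and for the 5 other pathway genes that passed the test (below). Aldh1a7 (2.03) and Aldh1a1 (1.69) lie farthest from 0, and the 7 members other than Aldh1a7, Aldh1a1 and Aldh1a2 lie between −0.26 and 0.53. The bar of Aldh1a7 is a description and not a test, as the gene was selected on this difference.

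Of the 9 members other than Aldh1a7, 0 were called higher and 0 lower by edgeR, against 3.96% of all genes tested (1.5% higher and 2.46% lower). Before adjustment 3 had p under 0.05 (Aldh1a1, Crabp1 and Rarb), as did 21.96% of all genes, and DESeq2 called Aldh1a1 higher and no other member. The groups did not overlap for 2 members with Arid1a cKO higher (Aldh1a1 and Aldh1a2) and 3 with Arid1a cKO lower (Aldh1a3, Crabp1 and Rarb). Over all genes tested, 29.1% had groups that did not overlap, 13.8% with Arid1a cKO higher and 15.3% with Arid1a cKO lower. The median log2 fold change of the 9 was 0.02, beside 0.0043 over all genes.

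In order of level per kb of exon, control incisors had Crabp1 first at 86.2 CPM per kb, then Rdh10 at 66.1, Aldh1a3 at 41.5, Dhrs3 at 19.5 and Crabp2 at 16.2. Lower still were Rarb at 5.77, Aldh1a2 at 4.58, Cyp26b1 at 2.50, Aldh1a1 at 1.73 and Aldh1a7 at 0.948 CPM per kb. Neighbours in this order did not overlap between libraries, apart from Rarb with Aldh1a2, Aldh1a2 with Cyp26b1, and Cyp26b1 with Aldh1a1. In Arid1a cKO the first 5 kept their order at 77.1, 57.3, 37.7, 19.8 and 17.3 CPM per kb. They were followed by Aldh1a2 at 11.4, Aldh1a1 at 5.59, Rarb at 4.81, Aldh1a7 at 3.88 and Cyp26b1 at 3.58 CPM per kb. Both orders depend on the merged exon lengths used.

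Arid1a cKO replicate 1 and control replicate 3, the libraries with Xist above Y-linked counts and with the highest epithelium scores, were set apart from the other 4. Within that pair the ratio of Arid1a cKO to control was 3.79 for Aldh1a7 (1 library against 1), and among the other libraries it was 4.27 (2 against 2). For Aldh1a1 the ratios were 2.13 in the pair and 3.64 in the others, and for Aldh1a2 they were 2.77 and 2.23. Cyp26b1 had a ratio of 2.23 in the pair and 0.985 in the others. The ratio of Rarb was 0.820 in the pair and 0.840 in the others, that of Aldh1a3 was 0.960 and 0.884, and that of Crabp1 was 0.990 and 0.852. With the epithelium score as a covariate, the log2 fold change was 2.05 for Aldh1a7 and 1.78 for Aldh1a1, and with a term for the Xist-high libraries it was 2.03 and 1.62. The part of Schwann cells, whose summed markers were higher in Arid1a cKO, was not tested.

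Of 70 other genes of the retinoid pathway, 51 had counts, 47 were tested, 3 rose and 2 fell in Arid1a cKO, and 42 did not pass the test. Over all genes tested, 1.5% rose and 2.46% fell. Their median log2 fold change was 0.03. Stra6, the membrane receptor that takes up retinol from its plasma carrier, fell and was measured at 5.76, 5.28 and 4.91 CPM in Arid1a cKO, against 8.92, 9.46 and 7.19 CPM in control. There was no overlap, and the log2 fold change was −0.68 (SE 0.144, adjusted p = 0.0453, edgeR). It was the only gene called among 8 tested for uptake, transport and storage. For Lpl, a lipoprotein lipase that takes part in the uptake of retinyl esters, the log2 fold change was 0.81 with an adjusted p = 0.108 in edgeR. Lpl did pass with DESeq2 (0.00470), with the epithelium covariate (0.0271) and with the term for Xist-high libraries (0.0334). Stra6 overlaps Ccdc33, a gene on the opposite strand.

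Of the 15 receptors and cofactors tested, Rxrg rose and Zfp423 fell. Rxrg encodes retinoid X receptor gamma and was measured at 3.13, 3.17 and 3.23 CPM in Arid1a cKO, against 1.88, 1.41 and 1.79 CPM in control, without overlap. Its log2 fold change was 0.90 (SE 0.183, adjusted p = 0.0396, edgeR). Zfp423 encodes a zinc finger cofactor of the retinoic acid receptor and was measured at 12.7, 11.96 and 12.4 CPM in Arid1a cKO, against 16.7, 16.1 and 17.5 CPM in control. These values did not overlap, with a log2 fold change of −0.44 (SE 0.0807, adjusted p = 0.0313, edgeR). Rarg, the receptor gene paralogous to Rarb, was at −0.19 on the same scale (adjusted p = 0.171), Rara at −0.05 (adjusted p = 0.771), the coactivator gene Ncoa1 at −0.25 (adjusted p = 0.118), and Nrip1, a corepressor gene, at −0.33 (adjusted p = 0.162). Over this list the groups did not overlap for 1 gene with Arid1a cKO higher and 7 with Arid1a cKO lower, where all genes tested gave 13.8% higher and 15.3% lower.

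Of 8 tested genes reported elsewhere as targets of retinoic acid, Meis1 and Rarres2 rose. Meis1, a homeobox gene, was measured at 6.22, 8.01 and 6.79 CPM in Arid1a cKO, against 4.05, 3.30 and 4.05 CPM in control, without overlap (log2 fold change 0.88, SE 0.158, adjusted p = 0.0287, edgeR). Rarres2 encodes chemerin, a secreted chemoattractant and adipokine, and was measured at 33.6, 26.9 and 33.1 CPM in Arid1a cKO, against 16.03, 21.3 and 21.1 CPM in control. No values overlapped (log2 fold change 0.68, SE 0.136, adjusted p = 0.0391, edgeR), and the gene overlaps Lrrc61 on the opposite strand. Tgm2, a transglutaminase gene of the same list, had 0.41 on the log2 scale (adjusted p = 0.406). Of the 13 other oxidoreductases and the 3 other degradation genes tested, 0 were called by edgeR, and DESeq2 called none of them either. Dhrs7 had the smallest p of the oxidoreductases, at a log2 fold change of 0.18 (adjusted p = 0.216). Cyp26a1, which degrades retinoic acid and is known to be strongly induced by it, had 95.3, 33.3 and 77.2 CPM in Arid1a cKO and 42.0, 59.7 and 64.8 CPM in control, which overlapped (log2 fold change 0.31, adjusted p = 0.717).

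The 5 calls lie near the threshold in edgeR. DESeq2 called all 5 as well, in a fit that called 812 genes higher and 1093 lower. With the epithelium score as a covariate, Rxrg had an adjusted p = 0.0548 and Stra6 an adjusted p = 0.0651. Stra6 was also not called with upper quartile normalization (0.0515), without a filter on low counts (0.0525) and with limma at a pseudocount of 5 (0.0509). Leaving out any library left at most 1 higher call and 0 lower calls. Meis1 passed without Arid1a cKO replicate 1 (adjusted p = 0.0310, up to 0.0821 without others), and Rarres2 passed without Arid1a cKO replicate 2 (0.0408, up to 0.119). Stra6 had adjusted p-values of 0.0613 to 0.142, Rxrg of 0.0694 to 0.114 and Zfp423 of 0.0512 to 0.110, each with its direction kept.

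Of 17 ALDH genes outside family 1A, 15 were tested, and 0 were called by edgeR, against 3.96% of all genes. Before adjustment 5 had p under 0.05, which 21.96% of all genes had as well, and DESeq2 called 3, with Aldh3a1 higher and Aldh6a1 and Aldh9a1 lower. Aldh3a1, which oxidizes fatty and aromatic aldehydes, had 2.40, 1.89 and 2.57 CPM in Arid1a cKO, against 0.351, 1.16 and 1.31 CPM in control, without overlap. Its log2 fold change was 1.29 (SE 0.424, adjusted p = 0.130, edgeR). Aldh9a1 and Aldh6a1 were each at −0.34 (adjusted p = 0.0588 for Aldh9a1 and 0.0749 for Aldh6a1), Aldh16a1 was at 0.20 (adjusted p = 0.106), and the median of the 15 was −0.04.

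Within 1 Mb of Aldh1a7, 7 genes were tested besides Aldh1a1, of which Anxa1 and Gda had a log2 fold change above 0 and the others below 0. Among the 7, 0 were called by edgeR, with 4 at p under 0.05 before adjustment, beside 3.96% called and 21.96% at that p over all genes. DESeq2 called Zfand5 lower and no other. Tmc1, a mechanotransduction channel gene and the next tested gene beyond the start of Aldh1a7, had 0.739, 0.595 and 0.594 CPM in Arid1a cKO, against 0.956, 1.30 and 1.02 CPM in control (log2 fold change −0.76, adjusted p = 0.140). Anxa1, an annexin gene beyond Aldh1a1, had 88.2, 74.6 and 73.9 CPM in Arid1a cKO, against 68.1, 78.3 and 69.8 CPM in control (log2 fold change 0.13, adjusted p = 0.430). The remaining log2 fold changes were −1.18 for AC106834.1 (adjusted p = 0.122), −0.37 for Zfand5 (0.0808), 0.28 for Gda (0.620), −0.13 for 1110059E24Rik (0.298) and −0.22 for Abhd17b (0.220). AC106834.1, a lncRNA, lies near the floor, with 8, 7 and 5 counts in Arid1a cKO and 12, 16 and 9 in control. The groups did not overlap for 4 of the 7 (Tmc1, AC106834.1, Zfand5 and 1110059E24Rik), each with Arid1a cKO lower, as it was for 15.3% of all genes tested.

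**Figure D5:**
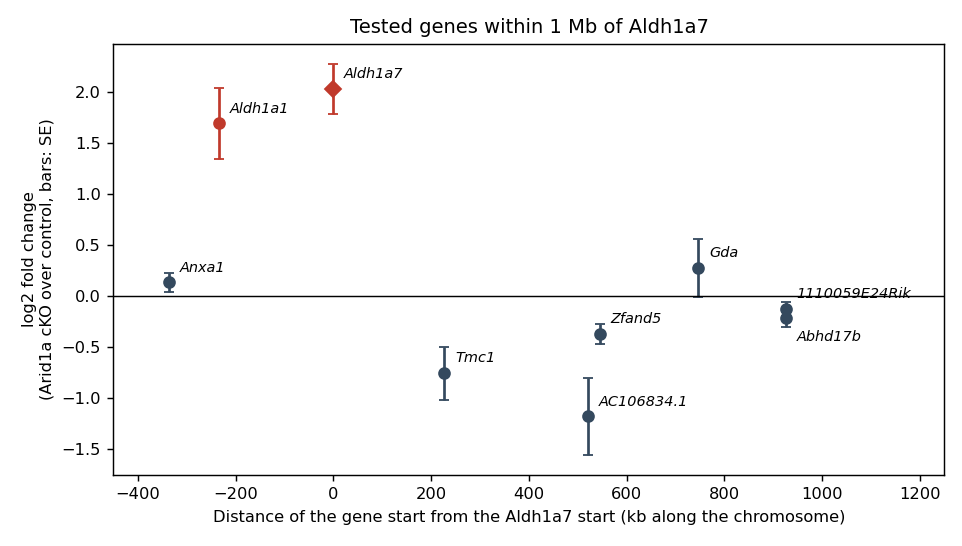
Log2 fold change, Arid1a cKO over control, of tested genes on chromosome 19 by the distance in kb of their start from the Aldh1a7 start, with bars of 1 SE. Aldh1a7 (2.03) and Aldh1a1 (1.69) stand above the 7 other genes, which lie between −1.18 and 0.28. The lowest of these, AC106834.1, had only 5 to 16 counts in a library. The bar of Aldh1a7 is a description and not a test.

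Genes whose pattern over the 6 libraries was most like that of Aldh1a7 were found by the root mean square difference of centred log2 CPM. Compared were 12817 tested genes with a mean of at least 2 CPM, without symbols of clones, predicted genes, pseudogenes or microRNAs. The nearest were Nlrp10 (0.25), Gsc (0.37), Sost (0.40), Rims4 (0.42) and Kcnip2 (0.42), and Aldh1a1 came at rank 37 of the 12817 with 0.57. Nlrp10, an intracellular sensor of the NLR family, had 2.85, 3.74 and 2.51 CPM in Arid1a cKO, against 1.05, 0.906 and 1.02 CPM in control. Gsc, the goosecoid homeobox gene, had 5.86, 7.74 and 6.99 CPM in Arid1a cKO, against 2.68, 1.85 and 2.78 CPM in control. Sost, which encodes the secreted Wnt antagonist sclerostin, had 5.86, 10.4 and 8.28 CPM in Arid1a cKO, against 2.74, 2.83 and 2.88 CPM in control. In each of these, as in Aldh1a7, Arid1a cKO replicate 2 was the highest library and no Arid1a cKO library reached down to the control level. Rims4, of the RIM family of synaptic proteins, lay at 6.93 to 8.28 CPM in Arid1a cKO and 2.41 to 3.41 CPM in control. Kcnip2, an auxiliary subunit gene of voltage-gated potassium channels, lay at 7.66 to 8.66 CPM in Arid1a cKO and 1.37 to 3.43 CPM in control. These genes were chosen for their likeness and their differences were not tested.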

How the data were processed

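Estimated counts per gene were deposited by the authors, made with STAR 2.6.1d and Partek on mm10 per the submitters' processing notes. Per the values, 54.0% to 57.6% of a library's estimated counts lie within 0.01 of a whole number. A normalized signal table of 21456 genes, deposited by the authors, equals the count plus 1 over a factor per library to within 0.000674%. It was used in alternatives only. Which annotation release, library kit, strand setting and normalization method were used was not given in the sources used here.

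Counts were rounded, filtered with filterByExpr (minimum count 10), normalized by TMM and compared with the quasi-likelihood F test of edgeR 4.0.16 (robust, two-sided, no covariate) in R 4.3.3, with Benjamini-Hochberg adjustment over 19613 genes and a threshold of 0.05. SE is the absolute log2 fold change over the square root of F. The biological coefficient of variation was 15.8%, and library totals of 27300932 to 37908478 make counting error small for all but low genes. Groups follow the genotype labels, and replicate numbers follow accession order. Gene symbols were matched to GENCODE M21 for exon length, merged over all transcripts of a gene (25059, 97.5%). DESeq2 1.42.0, limma 3.58.1, other normalizations, filters, covariates and library subsets were alternatives.

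The members, gene lists and tests were chosen with earlier results of these data known. Genes named are the members, Arid1a, listed pathway and ALDH genes that passed the test or had the 4 smallest p-values of their list, tested genes within 1 Mb of Aldh1a7, and the 5 genes most like it. Gli1, Rarg, Rara and the overlapping Top2b and C730002L08Rik were added after their values were seen. Some named results are not reported here.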

Additional observations from a re-analysis of the deposited data

How the results depend on the processing

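Over all genes, edgeR called 295 higher and 482 lower, against 812 and 1093 with DESeq2, 455 and 817 with a term for Xist-high libraries, and 54 and 123 in the 4 libraries with Y-linked counts above Xist (a subset chosen after seeing the data). Leaving out a library left 55 to 193 higher and 98 to 339 lower, with fewer samples in each fit. The count of members other than Aldh1a7 called higher was 1 in place of 0 with DESeq2, with at least 1 CPM in all libraries, with the epithelium covariate, with the Xist-high term and in the 4 libraries, and 0 to 1 when a library was left out. The gene was Aldh1a1 each time. Other pathway genes called higher numbered 3, against 4 with DESeq2 and with the Xist-high term (Lpl added), 3 with the epithelium covariate (Lpl in place of Rxrg), 0 in the 4 libraries and 0 to 1 when a library was left out. Those called lower numbered 2, against 1 with upper quartile normalization, 1 with limma on the authors' normalized table at a pseudocount of 5, 1 without a filter, 1 with the epithelium covariate, 4 with the Xist-high term, 0 in the 4 libraries and 0 when any library was left out. Other ALDH genes called numbered 0, against 3 with DESeq2, 1 with the epithelium covariate and 2 with the Xist-high term. Tested neighbours of Aldh1a7 called numbered 0, against 1 with DESeq2 and 1 with the Xist-high term (Zfand5 in both). The cause of these shifts was not tested.

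The log2 fold change of Aldh1a7 was 2.03, against 1.51 and 0.80 with limma on the authors' normalized table at pseudocounts of 1 and 5, where the pseudocount by its construction shrinks low genes, and 1.82 to 2.25 when a library was left out. On that scale with a pseudocount of 5, Aldh1a7 minus Aldh1a1 was −0.36 in place of 0.34, and it was 0.013 to 0.65 when a library was left out. The median of the other 9 members was 0.02, with −0.035 to 0.077 when a library was left out and −0.040 in the 4 libraries. Dhrs3 had −0.012 to 0.077 when a library was left out and −0.040 in the 4 libraries, and Cyp26b1 had −0.083 to 0.76 and −0.0092. The remaining members kept their direction in all 19 alternatives. No paired analysis was possible because the labels number the groups differently and share fewer than 2 numbers, although the protocol speaks of pairs of samples. The low counts of Aldh1a7 in control limit how finely its fold and its ratio to Aldh1a1 can be read.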
